A study of Mus musculus with 6 samples.

Results

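The subunits of the mitochondrial respiratory chain were followed in the prefrontal cortex of juvenile mice that were wild type or carried a Cyfip2 mutation. Members were the protein-coding genes with a mean normalized count of at least 10 over the 6 samples and a symbol of the main subunit families. These were the families of NADH dehydrogenase, succinate dehydrogenase, cytochrome bc1, cytochrome c oxidase and ATP synthase, and the rule leaves out Cyc1. This gave 95 members of 14969 genes tested, 13 encoded by the mitochondrial genome and 82 by the nucleus. The study compared 3 samples titled wild-type (genotype WT) with 3 titled Hetero (genotype Cyfip2 mutant), all from C57BL/6J mice at postnatal day 28. Messenger RNA was sequenced from stranded libraries, and the authors deposited 1 normalized count per gene and sample. The labels do not say which part of Cyfip2 is altered, nor that the samples are separate animals, so every p-value measures spread among these 6 samples only, and that spread may be technical.

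The respiratory chain passes electrons from NADH and succinate to oxygen and uses the energy to pump protons, which ATP synthase lets back to make ATP. Its complexes are built from the products of separate genomes. A few hydrophobic core subunits are encoded on polycistronic mitochondrial precursor transcripts, which are cut into messages and translated inside the organelle. All others are imported from the cytosol. Complex II is encoded wholly in the nucleus. Neurons rely heavily on this pathway to restore ion gradients after firing.

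The labelled genotype was checked on Cyfip2 itself, a subunit of the WAVE complex that regulates actin. The normalized counts were 31933, 30496 and 27503 in WT and 20959, 21237 and 18285 in Hetero. All Hetero values lay below all WT values, with a log2 difference of -0.57 ± 0.07 (SE), an adjusted p of 0.31 (limma, Benjamini-Hochberg) and an exact two-sided permutation p of 0.1, the smallest that 3 samples against 3 allow. No gene of the 14969 passed an adjusted p of 0.05 in limma (0.00% in each direction), while 573 had an unadjusted p below it (3.83%). Column totals ran from 29879143 to 30735443, and the estimated reads per library from 25500000 in WT sample 3 to 43900000 in Hetero sample 3. Markers of cortical excitatory neurons were measured in every sample (8 of 8, among them Slc17a7 and Camk2a).

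Most mitochondrial messages, counted here by gene although genes can share an RNA molecule, were far more abundant than the nuclear members. mt-Co1, the catalytic subunit of cytochrome c oxidase, had the highest mean of all genes in the table, and the 7 highest means all belonged to mitochondrial messages. mt-Nd3 and mt-Nd6, with means of 9775 and 1117, were exceeded by nuclear members such as Atp5b at 28344. In WT the 13 messages together took 8.86%, 8.73% and 9.39% of the column total (8.99% ± 0.354, SD, n = 3). In Hetero they took 8.54%, 8.49% and 8.40% (8.48% ± 0.0701, SD, n = 3). The Hetero samples thus lay below the WT samples without overlap, the difference of means being -0.515 percentage points, and no test was made of this sum over members. In tissue RNA such as this, fewer cells of a type and less RNA per cell cannot be told apart.

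All mitochondrial genes lack introns and lie close together on the mitochondrial chromosome, and reading frames overlap in places. A read that covers shared bases may fit either gene, and how the authors assigned such reads is not stated. Any effect on the values of mt-Atp8, mt-Atp6, mt-Nd4l and mt-Nd4 was not tested. The overlaps of mt-Atp8 with mt-Atp6 and of mt-Nd4l with mt-Nd4, each on 1 strand, are shown. They are from the GENCODE M21 transcripts on GRCm38, plus strand and 5′ to 3′, with the bases that both genes hold in capitals. By the annotation mt-Atp6 also meets mt-Co3 in 1 base, and mt-Nd5 overlaps mt-Nd6 on the opposite strand. The first lies at chrM:7912-7984 and holds 43 shared bases, and the second at chrM:10143-10197 holds 7.
mt-Atp8 and mt-Atp6: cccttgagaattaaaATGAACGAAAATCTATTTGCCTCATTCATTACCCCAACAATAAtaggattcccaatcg
mt-Nd4l and mt-Nd4: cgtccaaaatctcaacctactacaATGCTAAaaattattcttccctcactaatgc

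By direction, 11 of the 13 mitochondrial messages were lower in Hetero than in WT, with a median log2 difference of -0.10 (-0.0019 over all genes tested, of which 50.9% had a fitted value below 0). Unadjusted limma p-values under 0.05 were found for 6 of the 13, all lower, against 2.17% of all genes in that direction and 1.66% in the other. The groups did not overlap for 6, again all lower, against 4.32% of all genes, and 4.40% of all genes were higher without overlap. The shares of all genes were not matched for level or precision. The median SE of the log2 difference was 0.049 for the 13 messages and 0.097 for all genes. None passed the Benjamini-Hochberg adjustment over all genes in limma, where the lowest adjusted p among them was 0.9996. The messages are made from shared precursor transcripts and measured in the same libraries, so they are not independent of each other. mt-Nd4l and mt-Nd4, whose frames overlap, were both among the 6 whose groups did not overlap.

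Complex I is the entry point for electrons from NADH, and 7 of its membrane subunits are encoded in mitochondria. mt-Nd4 (chrM:10167-11544), a proton-pumping subunit, had normalized counts of 228468, 232087 and 241532 in WT and 211758, 217932 and 207090 in Hetero. All 3 Hetero values lay below the lowest WT value, with a log2 difference of -0.14 ± 0.04 and an unadjusted limma p of 0.0058. mt-Nd5 (chrM:11742-13565), the largest of the pumping subunits, was counted at 141331, 154332 and 157495 in WT and at 134664, 140319 and 114795 in Hetero. The groups were separated only narrowly, and Hetero sample 3 was far below the rest. The log2 difference was -0.22 ± 0.08, with an unadjusted limma p of 0.017.

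mt-Nd4l, the short subunit whose frame runs into mt-Nd4, had 40139, 39951 and 42199 in WT against 39162, 38107 and 31051 in Hetero. The separation again rested on a small gap, and the log2 difference of -0.18 ± 0.08 had an unadjusted limma p of 0.053. Without Hetero sample 3 the log2 difference of mt-Nd4l was -0.08 and that of mt-Nd5 was -0.13. mt-Nd1 gave 162271, 157353 and 170490 in WT and 160445, 151895 and 148887 in Hetero, and mt-Nd2 gave 99311, 91591 and 96194 against 92246, 94918 and 91831. Both overlapped between groups, at log2 differences of -0.09 and -0.04. mt-Nd6 (chrM:13552-14070), the single member read from the opposite strand, was by far the lowest, at 1032, 1143 and 1308 in WT and 1159, 1034 and 1025 in Hetero. Its log2 difference was -0.11 ± 0.09, within the spread of the samples.

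Complex III takes electrons from ubiquinol to cytochrome c, and its cytochrome b is the product of mt-Cytb (chrM:14145-15288). This message had 254062, 270964 and 286427 in WT and 252328, 250308 and 244189 in Hetero. The highest Hetero value fell just short of the lowest WT value, and the log2 difference was -0.12 ± 0.05 with an unadjusted limma p of 0.033.

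Complex IV reduces oxygen at a core formed by the mitochondrial subunits 1, 2 and 3. mt-Co1 (chrM:5328-6872) was counted at 843202, 836403 and 919886 in WT and 831189, 845717 and 774495 in Hetero. Its groups overlapped, at a log2 difference of -0.08 ± 0.05. mt-Co2 (chrM:7013-7696), which accepts the electrons from cytochrome c, had 294249, 285232 and 323255 against 275084, 257723 and 284391. Those values did not overlap, although the highest Hetero sample and the lowest WT sample were close, and the log2 difference was -0.14 ± 0.06 with an unadjusted limma p of 0.029. mt-Co3 (chrM:8607-9390) had 292825, 287265 and 296321 in WT and 267318, 266561 and 287528 in Hetero. Hetero sample 3 exceeded WT sample 2, so the groups overlapped, at a log2 difference of -0.09 ± 0.04 with an unadjusted limma p of 0.048.

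For ATP synthase, mt-Atp6 (chrM:7927-8607), the proton channel subunit, had 303537, 287584 and 312101 in WT and 282801, 279292 and 282286 in Hetero. These groups did not overlap, and the log2 difference was -0.10 ± 0.04 with an unadjusted limma p of 0.039. The partner gene mt-Atp8 (chrM:7766-7969), whose frame overlaps that of mt-Atp6, had 35774, 26569 and 30411 in WT and 33328, 33030 and 32233 in Hetero. All Hetero values of mt-Atp8 fell inside the WT range, at a log2 difference of 0.10 ± 0.09. With mt-Nd3, mt-Atp8 was 1 of the 2 mitochondrial messages with a value above 0, and it shares the 43 bases shown above with mt-Atp6.

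**Figure D1:**
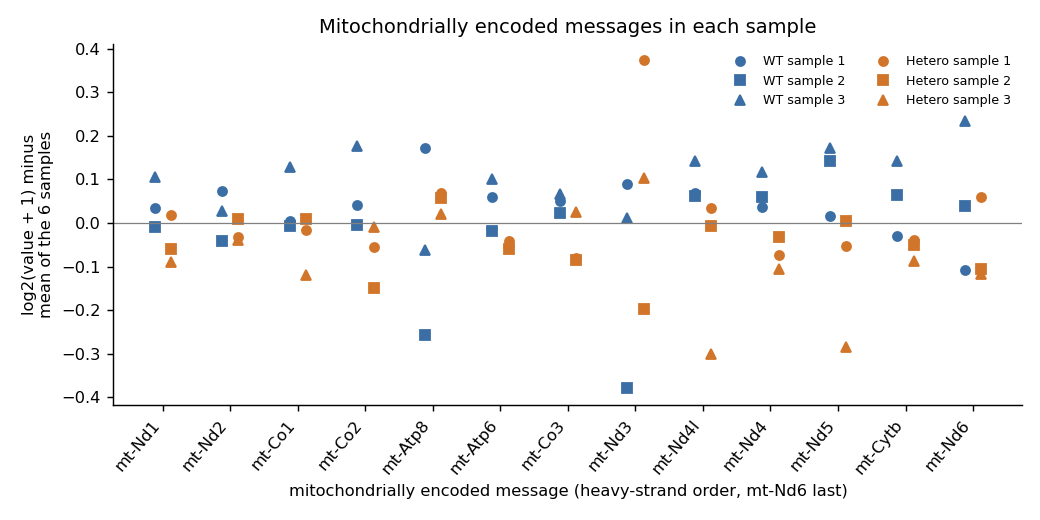
Points give log2(value + 1) of each mitochondrial message in each sample, minus the mean of the 6 samples; WT is blue, Hetero is orange, and the marker shape is the sample number. WT sample 3 was the highest sample for 10 of the 13 messages and Hetero sample 3 the lowest for 7.

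The order of samples within the groups was uneven, as the plot of each message by sample shows. WT sample 3 was highest for 10 of the 13 messages, where it was highest for 18.3% of all genes, and Hetero sample 3 was lowest for 7, where it was lowest for 23.2% of all genes. Averaged over the 13 messages, the log2 level relative to the 6-sample mean was 0.04, -0.03 and 0.11 in WT and 0.01, -0.05 and -0.08 in Hetero. By this mean the groups overlapped, since WT sample 2 was below Hetero sample 1. Without sample 3 of both groups, 10 of 13 messages were lower in Hetero, the median log2 difference was -0.05, and 3 had an unadjusted limma p under 0.05, against 4.37% of all genes in the same fit.

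Some cell type markers were lower in Hetero as well, and others were higher. The summed normalized count of the 8 excitatory neuron markers lay between 237388 and 250246 in the WT samples and between 230545 and 233584 in the Hetero samples. Camk2a and Slc17a7 made up most of it, and their log2 differences were -0.11 and -0.10. Of the 8 markers, 3 were above 0 and 5 below. By their mean log2 level the groups overlapped, at 0.03, -0.02 and 0.02 in WT and 0.01, -0.02 and -0.02 in Hetero. The 5 oligodendrocyte precursor markers summed to 6889 to 8033 in WT and 5874 to 6693 in Hetero, and 4 of the 5 did not overlap between groups, all lower in Hetero, against 4.32% of all genes. The 6 astrocyte markers summed to 151809 to 170074 in WT and 143786 to 156491 in Hetero, most of it Slc1a2, and 2 of the 6 were above 0 (Gfap at 0.13 and Gja1 at 0.06) and 4 below. Of the 7 inhibitory neuron markers, 5 were above 0 and 2 below. Among them 2 did not overlap between groups, Gad1 and Pvalb, both higher in Hetero, against 4.40% of all genes. No marker of these lists was at 0, and the part of these cell types in the mitochondrial values was not tested.

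The table also lists fragments of mitochondrial DNA inserted in chromosome 1. The annotation holds pseudogenes there that match mt-Co1, mt-Co2, mt-Co3, mt-Atp6, mt-Nd3 and mt-Nd4 at 99.7% identity or more, and the deposited table lists a value for each. A read of the mitochondrial message fits such a copy equally well wherever they are identical, so the values of both are uncertain. Together the copies took 0.501% to 0.679% of the column totals. The clearest case was mt-Nd3 (chrM:9459-9806), another complex I subunit, whose copy Gm28438 (chr1:24612775-24613119, minus strand) matches it over 345 bases with 1 substitution, T3C, counted from the 5′ end of mt-Nd3. The starts of both, read 5′ to 3′ from GENCODE M21 transcripts on GRCm38, are shown because this base, in capitals, is the only difference over the aligned bases; they lie at chrM:9459-9481 and chr1:24613097-24613119.
mt-Nd3: atTaacctgtacactgttatctt
Gm28438: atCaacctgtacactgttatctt

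mt-Nd3 had normalized counts of 10255, 7415 and 9720 in WT and 12492, 8410 and 10358 in Hetero, and Gm28438 had 8269, 8708 and 9531 against 4946, 8366 and 7992. Hetero sample 1 was thus the highest sample for the gene and the lowest for its copy. The copy held between 28.4% and 54.0% of their sum. mt-Nd3 alone had a log2 difference of 0.19 ± 0.17, with overlapping groups, and the sum had -0.03. The sums were 18524, 16122 and 19251 in WT and 17438, 16776 and 18349 in Hetero, so that every Hetero sum lay within the WT range.

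mt-Co1 had the largest copy by signal, Gm29216, which held 14.0% to 16.6% of the sum. Adding it left the log2 difference at -0.09, from -0.08 for the gene alone. With all 6 copies added to their genes, 12 of 13 mitochondrial messages were lower in Hetero and the median log2 difference was -0.11. The share of the column total then stood at 9.61% ± 0.405 in WT (SD, n = 3) and at 9.04% ± 0.0789 in the 3 Hetero samples.

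**Figure D2:**
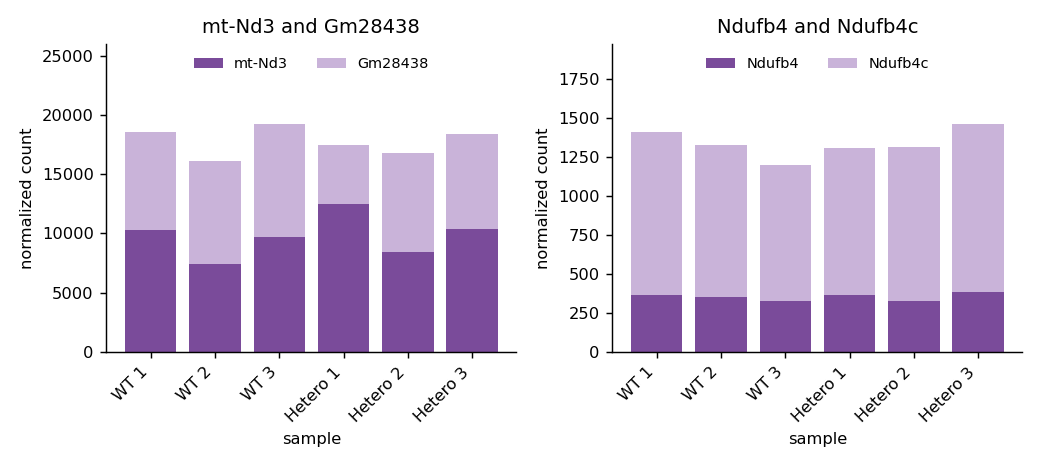
Stacked bars give the normalized count of mt-Nd3 with its chromosome 1 copy Gm28438 (left) and of Ndufb4 with its copy Ndufb4c (right) in each sample. The copy's part of the mt-Nd3 sum varied from 28.4% to 54.0%, while that of the Ndufb4 sum stayed between 72.1% and 75.2%.

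Per kilobase of transcript the mitochondrial messages stood far above the nuclear ones of the same complex. Lengths were the mean of the protein-coding GENCODE M21 transcripts of each gene. In complex I the median normalized count per kilobase was 90894 for mitochondrial and 2085 for nuclear members, a ratio of 43.6. The ratio was 51.5 in complex III and 96.2 in complex IV, with complex V between them. Within complex I the mitochondrial members themselves spread 77.0-fold, from mt-Nd1 at 165681 to mt-Nd6 at 2152 per kilobase. This width rests on mt-Nd6, since the next lowest, mt-Nd3, stood at 28088.

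**Figure D3:**
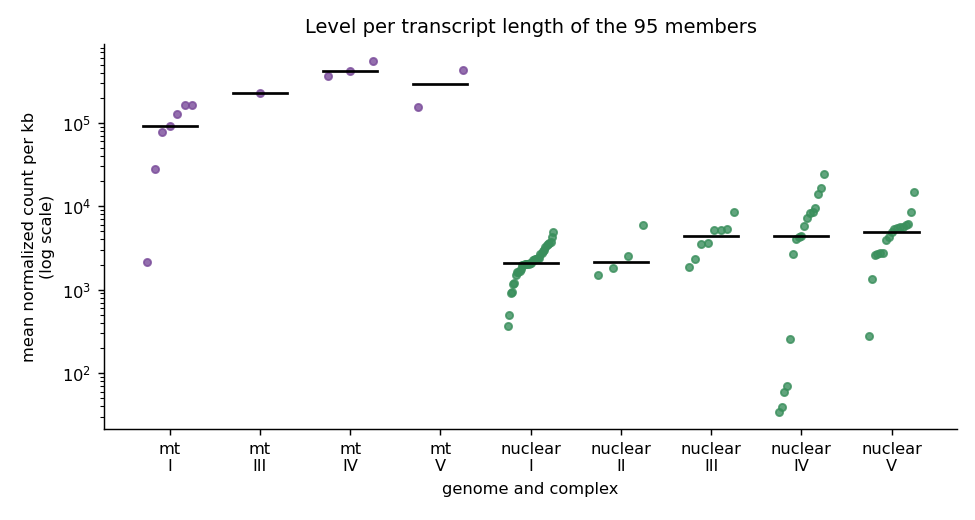
Each point is the mean normalized count per kilobase of 1 member over the 6 samples, on a log scale, by genome and complex, with the median as a line. Mitochondrial members (purple) had medians 43.6 to 96.2 times those of nuclear members (green) of the same complex.

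With all 6 samples the nuclear-encoded members were split evenly between directions, and this split turned with 1 library: 67 of 82 were lower in Hetero without Hetero sample 3, and 17 without Hetero sample 2. Of 82 in all samples, 41 had a fitted value above 0 and 41 below, the median log2 difference was -0.00031, and the range was -0.15 to 0.63. None had an unadjusted limma p under 0.05, against 3.83% of all genes, or an adjusted one. The groups did not overlap for 1 of 82, against 8.72% of all genes. The 95% interval of the ratio of Hetero to WT stayed within 1.25-fold in both directions for 76 members, against 55.5% of all genes, and within 1.5-fold for 79, against 80.9% of all genes. The other 3, Cox4i2, Cox6b2 and Cox7a1, were among the members with the lowest levels. These shares were not matched for level: the median normalized count per kilobase was 2711 for nuclear members and 281 for all genes.

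**Figure D4:**
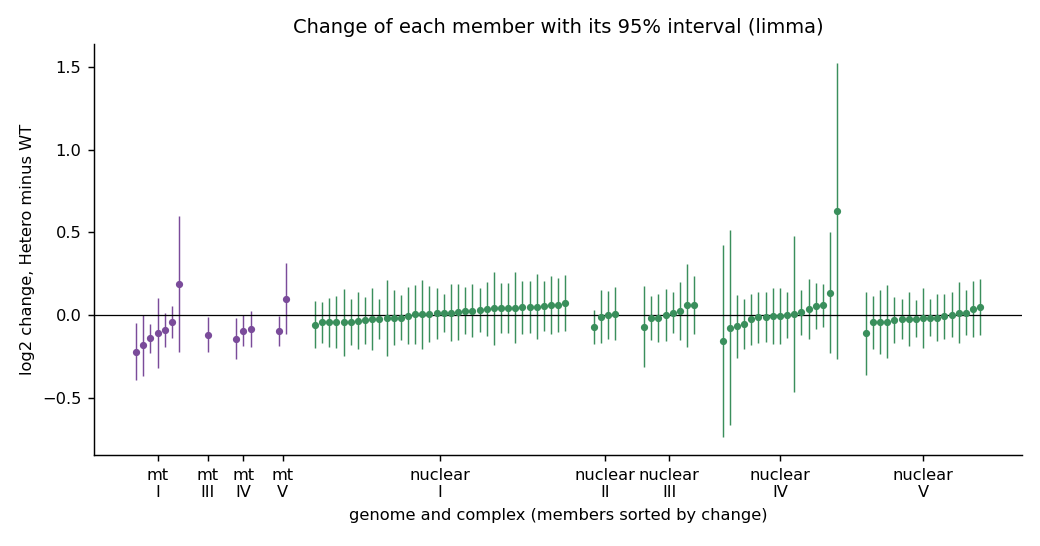
Points give the log2 difference (Hetero minus WT) of each of the 95 members from limma, with its 95% interval, sorted within genome and complex. Nuclear members (green) scatter around 0 from -0.15 to 0.63, and 11 of 13 mitochondrial members (purple) lie below 0.

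Nuclear complex I had 36 members, 22 above and 14 below 0 with a median log2 difference of 0.01. Its catalytic core is formed by flavin and iron-sulfur proteins. Ndufv1, which binds NADH, had 3843, 3931 and 3994 in WT and 3776, 3524 and 4139 in Hetero (log2 difference -0.04 ± 0.07). Ndufs1, the largest iron-sulfur subunit, had 3555, 3669 and 3603 against 3595, 3595 and 3736 (0.01 ± 0.05). Both groups overlapped, and Hetero sample 3 was the highest for each. The core members Ndufs3, Ndufs7, Ndufs8 and Ndufv2 had log2 differences between 0.02 and 0.06. Over the whole complex the smallest p-values belonged to Ndufa10 (log2 difference 0.07 ± 0.08) and Ndufs8 (0.06 ± 0.07) above 0, and to Ndufb5 (-0.06 ± 0.06) and Ndufb8 (-0.04 ± 0.06) below it, the smallest being 0.37 in limma without adjustment.

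Levels within nuclear complex I spanned 13.5-fold per kilobase, from Ndufb9 at 4918 to Ndufb4 at 363. Ndufb4 is the named member whose copy holds the largest part of their sum. Its processed pseudogene Ndufb4c matches it over 390 bases at 100% identity and held 72.1% to 75.2% of their summed value. The gene had 366, 350 and 327 in WT and 366, 326 and 382 in Hetero, overlapping throughout, and the log2 difference was 0.04 alone and 0.05 for the sum. In all, 20 members had a near-identical copy in the table (95% identity over at least 150 bases), and for 19 it was a pseudogene.

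Complex II feeds electrons from succinate and is shared with the citric acid cycle. Sdha (chr13:74322254-74350280), its flavoprotein, was the only nuclear member whose groups did not overlap. It had normalized counts of 10843, 11280 and 10814 in WT and 10349, 10391 and 10544 in Hetero. All Hetero values were lower by a small margin, with a log2 difference of -0.07 ± 0.05 and an unadjusted limma p of 0.14. The remaining members Sdhb, Sdhc and Sdhd had log2 differences of -0.00, 0.01 and -0.01. Sdhb, the iron-sulfur subunit, had 2678, 3013 and 2891 in WT and 2772, 2782 and 3021 in Hetero, with overlapping groups.

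In complex III, 5 of 8 nuclear members had values above 0 and 3 below, with a median of 0.01. Cyc1, the cytochrome c1 subunit, is not caught by the symbol rule and was counted among the cofactor and carrier genes. Uqcrc1, a core protein, was the most abundant per kilobase (8635) and had 6482, 6842 and 6780 in WT and 6327, 6297 and 7269 in Hetero. Hetero samples 1 and 2 were the lowest of the 6 and Hetero sample 3 the highest, at a log2 difference of -0.02 ± 0.07. The same order held for Uqcr11, a small subunit, with 2246, 2329 and 2639 in WT and 2067, 2128 and 2715 in Hetero (log2 difference -0.07 ± 0.11). Uqcrfs1, the Rieske iron-sulfur protein, and Uqcrc2 had log2 differences of -0.02 and 0.02.

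Complex IV held the widest range of nuclear levels, 707-fold per kilobase, and several of its subunits exist as isoforms of which 1 is typical of most tissues and another of muscle, lung or testis. Cox8a stood at 24268 per kilobase and Cox7a1 at 34.3. Each tissue-restricted isoform was far below its partner in the same samples. Cox4i1 exceeded Cox4i2, an isoform known from lung and hypoxic cells, 425-fold per kilobase (370 to 561 over the samples). The ratio of Cox6b1 to the testis isoform Cox6b2 was 140 (120 to 180). Cox6a1 exceeded Cox6a2, the form of heart and skeletal muscle, 55.3-fold (47.7 to 68.5). Cox7a2 exceeded the muscle form Cox7a1 124-fold (76.6 to 306), and Ndufa4, now placed in complex IV, exceeded Ndufa4l2 136-fold (121 to 172).

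No isoform had an unadjusted limma p under 0.05, and the lowest was 0.15, for Cox7a1. Cox4i1 had 10876, 11028 and 11303 in WT and 10295, 10534 and 12244 in Hetero, and Cox4i2 had 32.4, 29.8 and 27.7 against 26.3, 20.7 and 35.1. In both, Hetero sample 3 was the highest sample. Cox6a2 had 132, 208 and 162 in WT and 180, 186 and 177 in Hetero, all Hetero values inside the WT range. Cox7a1, just above the minimum with a mean of 15.1, had 6.10, 16.5 and 13.4 in WT and 21.9, 13.8 and 18.7 in Hetero, and its log2 difference of 0.63 ± 0.40 was the largest of all members and the least precise. Just below the minimum were Cox7b2, with a mean of 7.01, and Cox8b, a muscle isoform, with 2.82. Of the 5 muscle markers, Acta1, Actn3 and Myh1 had means of 395, 35.6 and 19.4, and the creatine kinase Ckm and the troponin Tnnt3 had 1.13 and 1.46.

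ATP synthase had 17 nuclear members, 5 above and 12 below 0, with a median log2 difference of -0.02. Atp5b, the catalytic beta subunit, led by level per kilobase (14793) and had 27679, 29941 and 28119 in WT and 27384, 27092 and 29847 in Hetero. The groups overlapped, at a log2 difference of -0.02 ± 0.05. Atp5a1, the alpha subunit, Atp5c1, of the central stalk, and Atp5o, of the peripheral stalk, had log2 differences of -0.02, -0.02 and -0.01. Atp5s had the lowest level per kilobase (276) and a log2 difference of -0.11 ± 0.11; it is caught by its symbol and is a coupling factor outside the core enzyme.

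A ring of identical c subunits turns as protons pass, and mammals encode that peptide in the genes Atp5g1, Atp5g2 and Atp5g3. Atp5g3 had the highest message level of these genes, at 5951 per kilobase and a mean normalized count of 4273. Per kilobase it was 2.17-fold above Atp5g2, with a range of 2.02 to 2.33 over the samples. Protein was not measured. Atp5g1 stood at 0.492 of Atp5g2 per kilobase, but its mean normalized count, 3589, was above that of Atp5g2 (1618 to 1914 over the samples). That order turns with the annotated mean lengths of 2666 and 640 nt, and effective lengths were not used. Their log2 differences between genotypes were -0.01 for Atp5g3, 0.04 for Atp5g2 and -0.04 for Atp5g1, each smaller than its SE of 0.06 to 0.08.

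A Hetero sample stood apart in the nuclear members. Hetero sample 3 was the highest of the 6 samples for 61 of 82 nuclear members (74.4%), where it was highest for 22.1% of all genes. This held in 25 of 36 members of complex I, 3 of 4 of complex II, 7 of 8 of complex III and 13 of 17 each of complexes IV and V. The mean log2 level of the nuclear members was -0.04, 0.03 and -0.00 in WT and -0.05, -0.06 and 0.12 in Hetero. Hetero samples 1 and 2 were therefore the lowest of the 6 samples and Hetero sample 3 the highest.

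In the values as deposited, that sample had the lowest mitochondrial and the highest nuclear level. The mitochondrial level minus the nuclear level was -0.20 log2 units in Hetero sample 3, and between -0.06 and 0.11 in the other 5 samples. The nuclear members made up 0.969% of the column total in Hetero sample 3 and 0.858% to 0.905% in the others.

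**Figure D5:**
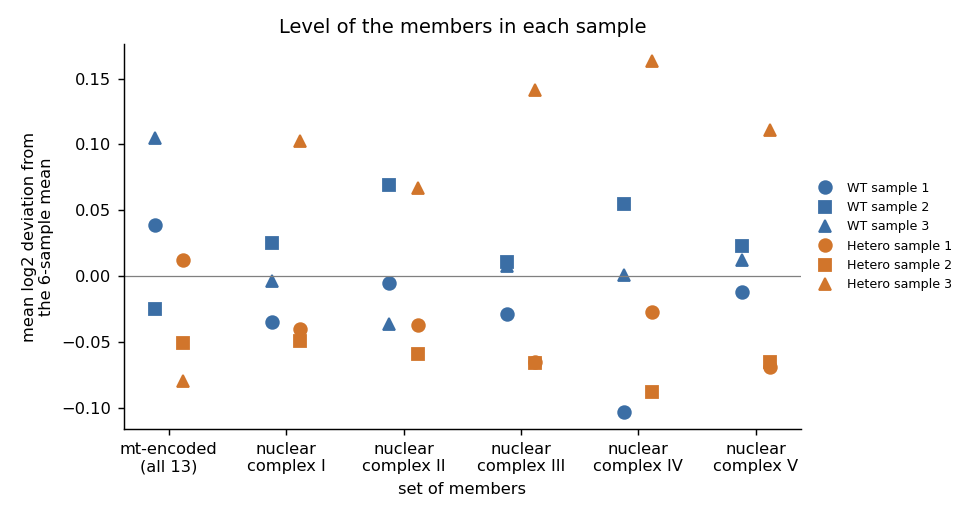
Points give the mean log2 deviation from the 6-sample mean over the 13 mitochondrial members and over the nuclear members of each complex; WT is blue, Hetero is orange, and the marker shape is the sample number. Hetero sample 3 is lowest for the mitochondrial set and highest for nuclear complexes I, III, IV and V; in complex II WT sample 2 stands beside it.

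Without Hetero sample 3, 67 of 82 nuclear members were lower in Hetero (49.8% of all genes) and the median log2 difference was -0.06. Unadjusted limma p-values under 0.05 were then found for 3, against 5.22% of all genes in the same fit: Uqcr11 at -0.19 ± 0.08, Cox6b1 at -0.16 ± 0.06 and Ndufa3 at -0.15 ± 0.06. None passed the Benjamini-Hochberg adjustment in limma (adjusted p = 0.93 for each). With sample 3 of both groups left out, 69 of 82 were lower (49.6% of all genes) at a median of -0.05. Without Hetero sample 1 or Hetero sample 2 the count of lower members was 25 or 17. The even split of nuclear members around 0 thus held only with all 3 Hetero samples included.

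Transcript length and estimated depth moved with the same sample. The median length was 724 nt for nuclear members and 2302 nt for all genes. Of 1542 genes up to 1000 nt long, Hetero sample 3 was the highest sample for 42.9%, and of nuclear members in that class for 45 of 58. For genes over 4000 nt it was the highest for 9.29%. After a trend of each sample's values on GC content and length was removed, Hetero sample 3 was the highest for 30 of 82 nuclear members (36.6%), against 18.9% of all genes, and the nuclear level was 0.05 there and also 0.05 in WT sample 2. After the same step Hetero sample 3 was the lowest for 3 of 13 mitochondrial messages. The mitochondrial level was then -0.03, 0.01 and 0.13 in WT and 0.03, -0.08 and -0.06 in Hetero. By this level the groups overlapped, since Hetero sample 1 was above WT samples 1 and 2. The summed hemoglobin and Alas2 count was likewise highest in Hetero sample 3, at 52503, with 46065 in WT sample 3 and 14808 to 27154 in the other 4. That sample also had the most estimated reads, but its estimate had the weakest fit. In it 15.5% of values under 60 were whole multiples of a single step, against 23.3% to 28.0% in the other samples. The part of depth and blood RNA in the nuclear levels was not tested.

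Promoters of nuclear members were read for motifs of factors long linked to these genes. RefSeq start sites on GRCm38.p6 were matched for 65 of 82 members, and the 250 bases before each start were searched on both strands. The NRF1 motif, GCGCA followed directly by its reverse complement TGCGC, was found in 4 members (6.15%) and in 1.74% of the 11412 tested genes with a promoter. The ETS motif CCGGAAG, bound by GABP, was in 12 (18.5%, against 14.1%). AAGATGGC, of YY1, was in 1 (1.54%, against 2.23%), and TCAAGGTCA, of estrogen-related receptors, was in 1 (1.54%, against 0.359%). These matches describe letters only, and no 2 motifs shared bases in a member's window. 2 of the 4 members with the NRF1 motif are shown, with the motif in capitals. The stretches around the motif of the others, Atp5g2 and Atp5k, overlapped the annotated gene and were left out. Cox6a1 lies on the minus strand (chr5:115349086-115349145, with 153 bases from motif to start) and Ndufa11 on the plus strand (chr17:56717677-56717736, with 51 bases).
Cox6a1: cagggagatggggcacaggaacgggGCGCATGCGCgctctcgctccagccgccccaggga
Ndufa11: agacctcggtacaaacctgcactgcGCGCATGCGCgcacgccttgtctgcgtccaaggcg

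Cox6a1, a nuclear subunit of cytochrome c oxidase, had 7612, 8339 and 8784 in WT and 7712, 7640 and 8453 in Hetero, and its log2 difference was -0.05 ± 0.07. Ndufa11, an accessory subunit of complex I, had 1238, 1258 and 1388 against 1320, 1264 and 1468, at 0.06 ± 0.08. Both overlapped between groups. The other carriers of the motif, Atp5g2 and Atp5k, had log2 differences of 0.04 and 0.05.

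The genes that supply, assemble and regulate the chain were taken from 8 lists, and none of their members passed the Benjamini-Hochberg adjustment in limma. Of 24 cofactor and carrier genes, which cover cytochromes c and c1, ubiquinone synthesis and ADP/ATP carriers among others, 10 were above and 14 below 0. Coq8b (-0.15 ± 0.09) and Coq9 (0.09 ± 0.06), both needed for ubiquinone synthesis, had the smallest p. Complex I assembly factors stood at 10 above and 7 below, with Lyrm2 (0.25 ± 0.12) and Ndufaf2 (0.21 ± 0.11) first. Assembly factors of complexes II, III and V had 11 of 13 above 0 at a median log2 difference of 0.04, and none had an unadjusted limma p under 0.05. Those of complex IV had 12 of 25 above 0, with the heme A synthase Cox15 (-0.20 ± 0.10) and Coa3 (0.09 ± 0.07) first.

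Genes that maintain and transcribe mitochondrial DNA had 10 of 19 above 0. Polrmt, the mitochondrial RNA polymerase, had a log2 difference of -0.16 ± 0.13, and the transcription factor Tfb2m had 0.12 ± 0.09. Of 25 genes of mitochondrial RNA processing and translation, 12 were above 0. An unadjusted limma p under 0.05 was found for 1 of the 25, against 3.83% of all genes. That gene was the initiation factor Mtif2 (0.33 ± 0.14, with overlapping groups and an unadjusted limma p of 0.037). Regulators of biogenesis had 7 of 16 above 0, led by Pprc1 (-0.17 ± 0.10) and Esrrg (0.18 ± 0.11). Of 21 genes used as measures of mitochondrial mass, such as import channels and matrix chaperones, 9 were above and 12 below 0 with a median log2 difference of -0.01. The import motor subunit Timm44 had a mean of 1896 ± 84.9 in WT (SD, n = 3) and of 1617 ± 77.2 in the 3 Hetero samples, with a log2 difference of -0.23 ± 0.06 without overlap. Its unadjusted limma p was 0.0057, 1 of 21 in the list against 3.83% of all genes, and the prohibitin Phb followed at -0.07 ± 0.06.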

How the data were processed

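Messenger RNA libraries were made with a stranded mRNA kit, per the labels' protocols, from 6 samples grouped by title and genotype. The authors deposited 1 table of normalized counts, used here as a signal: values are not whole and columns sum to nearly the same total. The tools named per the submitters' processing notes, without roles, are DESeq2 1.19.11, Salmon 0.11.2 and R 3.6.0, with GRCm38 as the build. How values were scaled, and on which annotation, is not given in sources used here. A single step made 15.5% to 28.0% of values under 60 whole multiples (within 0.02 of a step; 3.02% to 3.23% at other steps), so whole reads were not recovered and no count test was run. Column total over step gave the estimated reads per library, and a shallower library carries more counting error at the same value.

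Gene identifiers were matched to GENCODE M21 (17875 of 17889). Values were analysed as log2(value + 1) with limma 3.58.1 in R 4.3.3 (trend and robust), two-sided, with Benjamini-Hochberg adjustment over 14969 genes (mean 10 or more) and a threshold of 0.05; all log2 differences, their SE and 95% intervals are on this scale, which understates differences of low genes. The procedure was tested on simulated data with independent noise for each gene and sample, which did not cover shifts shared by a whole library. A level is the average, over members, of how far the log2 value lies from that gene's mean of 6 samples. Copies were found with blastn 2.17.0. Ndufa4 and Ndufa4l2 were placed in complex IV.

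The members, lists and tests were chosen with earlier results of these data known. Named genes were Cyfip2 and Cyfip1, all mitochondrial members, in each nuclear complex the 2 highest and the lowest per kilobase and the 2 smallest p in each direction, core subunits, isoform groups, members caught by symbol that are no subunits or lie next to the minimum, and the 2 smallest p of each pathway list; Uqcr11, Cox6b1 and Ndufa3 without Hetero sample 3, Ndufa11 and Atp5k by motif, and the markers named were chosen after their values were seen. Cyfip1 had a log2 difference of 0.01. Values of 1 core subunit are not reported here. Alternatives covered scaling, low-value filter, pseudocount, the limma settings, GC and length trends, the replicate block and leaving out samples; leaving out sample 3 of both groups and adding the chromosome 1 copies were chosen after seeing the data.

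The further marker lists had these counts of members above and below 0: inhibitory neurons 5 and 2, mature oligodendrocytes 1 and 5, microglia 0 and 6, endothelium and pericytes 2 and 3, meningeal fibroblasts 5 and 1, choroid plexus and ependyma 2 and 1, striatum 2 and 4, erythroid cells 5 and 0, muscle 1 and 2. None passed the adjusted limma threshold.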

Additional observations from a re-analysis of the deposited data

How the results depend on the processing

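No setting changed the direction of the mitochondrial median, which ran from -0.12 to -0.07 with each sample left out, with 11 to 12 of 13 messages below 0. The share of mitochondrial messages in the column total differed by -0.649 to -0.315 percentage points. Scaling (TMM with and without mitochondrial genes, median centring) shifted the median of all genes by 0.0027, 0.0027 and -0.0017. A single library decided the nuclear count below 0: 17 to 67 of 82 over leave-one-out, and 69 without sample 3 of both groups. Genes called over the whole table, 0 in each direction, became 0 to 1 in each direction over leave-one-out, and 3 higher and 1 lower without sample 3 of both groups. Cyfip2 kept its direction in all settings (log2 difference -0.63 to -0.50 over leave-one-out) and passed the adjusted limma threshold at -0.56 without sample 3 of both groups. No named member passed it in any setting.

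The labels do not say whether sample numbers pair the samples, and pairing or a shared batch was not tested. Deviations of same-numbered samples correlated at -0.005, 0.004 and 0.227 for samples 1, 2 and 3. With the replicate block, 1 gene was called higher and 1 lower, and Cyfip2 passed at -0.57.

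Cyfip1, mt-Atp8 and many named nuclear members turned their sign with a sample left out, and the cause was not tested. The lowest and highest log2 differences were Cyfip1 -0.040 to 0.049, mt-Atp8 -0.0054 to 0.21, Ndufb9 -0.068 to 0.012, Ndufb4 -0.0076 to 0.11, Ndufa10 -0.0037 to 0.14, Sdhb -0.047 to 0.038, Sdhc -0.043 to 0.063, Sdhd -0.061 to 0.021, Uqcr11 -0.19 to 0.0026, Uqcrc1 -0.086 to 0.018, Uqcrfs1 -0.063 to 0.011, Uqcrq -0.048 to 0.13, Cox4i1 -0.088 to 0.037, Cox8a -0.098 to 0.056, Atp5b -0.069 to 0.0094, Atp5k -0.024 to 0.090, Atp5g2 -0.015 to 0.099, Atp5g1 -0.099 to 0.0054, Ndufs1 -0.0054 to 0.025, Ndufs3 -0.0011 to 0.064, Ndufs7 -0.049 to 0.057, Ndufv1 -0.10 to 0.011, Uqcrc2 -0.020 to 0.044, Atp5c1 -0.027 to 0.0020, Atp5o -0.062 to 0.027, Atp5g3 -0.077 to 0.019, Cox4i2 -0.34 to 0.024, Cox6a2 -0.022 to 0.30, Cox6b2 -0.23 to 0.072, Cox7a2 -0.078 to 0.068, Ndufa4 -0.042 to 0.11 and Ndufa4l2 -0.17 to 0.11. Without sample 3 of both groups the values that turned were mt-Nd6 0.012, Ndufb4 -0.050, Ndufa10 -0.026, Ndufs8 -0.010, Sdhc -0.081, Uqcrb -0.046, Cox8a 0.00070, Cox7b -0.012, Atp5k -0.031, Ndufs1 -0.0065, Ndufs3 -0.019, Ndufs7 -0.038, Ndufv2 -0.017, Uqcrc2 -0.030, Ndufa4 -0.056 and Ndufa4l2 -0.099. Adding the chromosome 1 copies turned mt-Nd3 to -0.033, and TMM with and without mitochondrial genes turned Sdhb to 0.0020. A count test on whole reads was not run. The depth, with 3 samples a group, limits members such as Cox7a1 and Cox4i2 most.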
